A study of Homo sapiens with 8 samples.

Results

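The comparison described here is doxycycline against no doxycycline in H1 cells that carry a non-silencing hairpin, 5 days after the drug was added. It rests on 2 of the 8 libraries of the series, chosen by their labels and not by any measured value. These are shNS with doxycycline at day 5 and shNS without doxycycline at day 5. H1 is an established line of human embryonic stem cells. Both cultures carried the same inducible short hairpin RNA, which targets no human gene by design, and both grew feeder-free on Matrigel in medium with puromycin. The labels give the dose as 2 mg/ml, a unit that may be an error in the labels and could not be checked here. The other 6 libraries served only as a second look at the same drug: shNS with and without doxycycline at day 7, and shEXOSC3, whose hairpin is directed against the RNA exosome subunit EXOSC3, with and without doxycycline at days 5 and 7. Each of the 8 groups was 1 library, so every ratio below compares single libraries. Doxycycline and expression of the hairpin came together in every treated culture, so their effects cannot be told apart. The labels used here do not say whether a line was 1 clone.

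Doxycycline is a tetracycline antibiotic that is widely used to switch on genes placed behind a tetracycline-responsive promoter. Tetracyclines block bacterial ribosomes and are also known to inhibit the related ribosomes of mitochondria. In many human cell types, disturbed mitochondrial translation, lack of amino acids or unfolded proteins lead to phosphorylation of the translation factor eIF2, which favours translation of the transcription factor ATF4. ATF4, paired with C/EBP proteins, binds C/EBP-ATF response elements in genes for amino acid synthesis, amino acid uptake and transfer RNA charging, and this program is called the integrated stress response. A pair with a non-silencing hairpin shows the inducer and hairpin expression together, in the absence of a knockdown.

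Expression was deposited as FPKM, fragments counted relative to transcript length and to all mapped fragments, for 49235 RefSeq transcripts, and was summed over the transcripts of a gene. The log2 ratio throughout is log2 of (FPKM + 1) with doxycycline over (FPKM + 1) without, which understates differences of low genes. Genes with a mean of at least 1 FPKM over the 2 libraries were tested, which gave 12782 genes. The steps between low FPKM put the sequencing depth with doxycycline at 1.59 times that without, against 1.33, 1.01 and 0.922 times in the pairs of shNS day 7, shEXOSC3 day 5 and shEXOSC3 day 7. Absolute depth is unknown. With doxycycline 35055 transcripts were above 0 and 17806 reached 1 FPKM, against 33574 and 17794 without. EXOSC3 was at 27.8 FPKM with doxycycline and 27.3 FPKM without (log2 ratio 0.03). All 11 pluripotent cell markers exceeded 1 FPKM in both libraries, with a sum of 2208 FPKM with doxycycline and 2490 FPKM without. None of the 6 mesendoderm markers reached 1 FPKM in either library. Of 6 definitive endoderm markers only AFP did, at 2.43 and 2.25 FPKM, and among 7 trophectoderm and amnion markers only KRT7, at 9.21 and 8.43 FPKM. Among 8 neuroectoderm markers 3 did, with a sum of 104.6 FPKM with doxycycline and 113 FPKM without, led by NES at 84.4 and 81.9 FPKM. Outside these marker sets, the endoderm genes HHEX and APOA1 were also above 1 FPKM in both libraries, at 1.15 and 1.55 FPKM with doxycycline and 1.77 and 1.11 FPKM without. So were the trophectoderm and amnion genes TFAP2C, BMP4, IGFBP3 and GABRP, with TFAP2C highest at 5.11 FPKM with doxycycline and 6.62 FPKM without. The neuroectoderm genes TUBB3, CDH2, SOX3 and SOX11 were as well, with TUBB3 above NES at 90.7 and 83.0 FPKM. On longer lists of 18 genes each, 6 neuroectoderm and 5 trophectoderm and amnion genes had a mean of at least 1 FPKM. Among fibroblast markers 4 of 8 reached 1 FPKM, led by THY1 at 84.9 FPKM with doxycycline and 74.1 FPKM without.

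Few genes differed 2-fold. Past a 2-fold difference, 100 genes (0.782% of those tested) were higher with doxycycline and 83 (0.649%) were lower. Most of these were short RNAs, meaning small RNA classes and loci under 300 bp: 83 of the higher and 69 of the lower genes, out of only 338 short RNAs tested (24.6% and 20.4%). Many short RNAs were listed at 0 in 1 library and at several FPKM in the other, such as SNORD9 at 49.1 FPKM with doxycycline and 0 without, and SNORD70 at 0 with doxycycline and 21.8 FPKM without. These values went both ways, and of 127 microRNA genes 60 were higher and 42 lower by 2-fold or more. Among the 12444 other genes, 17 (0.137%) were higher and 14 (0.113%) lower by that size, and their ratios had a median of 0.01 and an SD of 0.21 across genes. Of the 17 higher genes 9 had a mean below 5 FPKM, as had 12 of the 14 lower ones. The lower H3-3A (close to 0 FPKM with doxycycline and 2.71 FPKM without) has near-identical copies elsewhere in the genome, and read-through genes such as INO80B-WBP1 share exons with other genes, so such values are uncertain. The ratio also depended weakly on level: its median was -0.04 for genes at 1 to 2 FPKM and 0.07 for genes above 100 FPKM. Chromosome medians lay between -0.01 (chromosome 19) and 0.03 (chromosome 4).

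**Figure D1:**
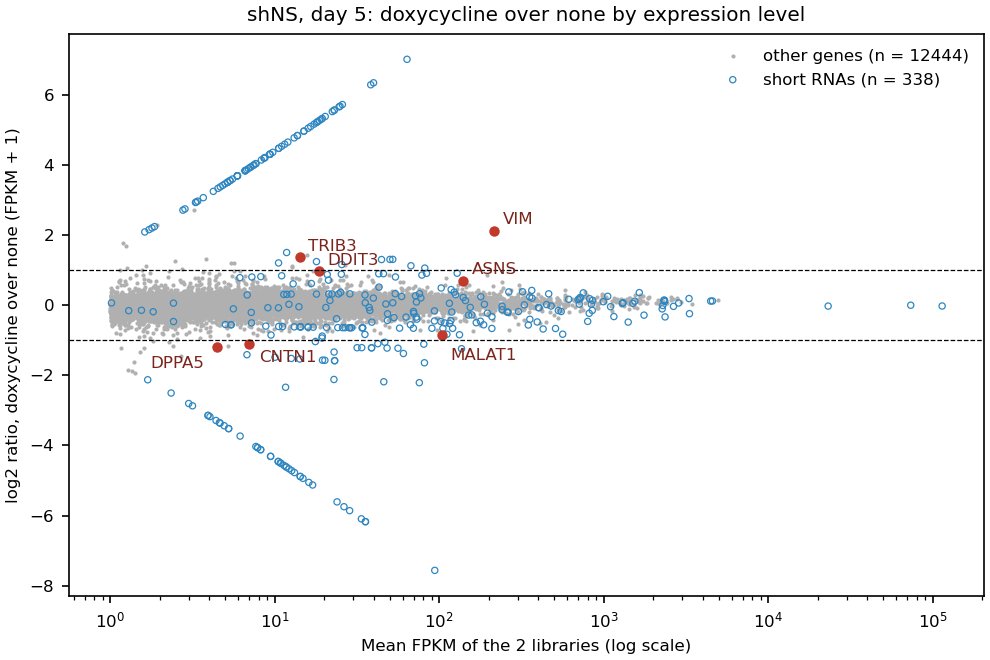
Log2 ratio of doxycycline over no doxycycline in shNS cells at day 5 (y axis) against the mean FPKM of the 2 libraries (x axis, log scale), 1 point per tested gene, with 338 short RNAs as open blue circles and dashed lines at 2-fold. Short RNAs listed at 0 in 1 library form the 2 diagonal bands, and VIM stands alone among abundant genes at a ratio of 2.12.

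VIM, which encodes the intermediate filament protein vimentin, had the highest ratio of all genes with a mean of at least 5 FPKM other than short RNAs. It had 352 FPKM with doxycycline and 79.9 FPKM without, a log2 ratio of 2.12 (hg19, chromosome 10, 17256238 to 17279592, a locus that also holds overlapping entries). The same gene had 244 and 82.9 FPKM in shNS at day 7, 524 and 88.8 FPKM in shEXOSC3 at day 5, and 431 and 87.7 FPKM in shEXOSC3 at day 7, with doxycycline and without. All 4 doxycycline libraries lay above all 4 untreated ones, and the untreated libraries differed little among themselves. In the 3 pairs that share no library with shNS day 5, VIM had a mean log2 ratio of 2.12 (SE 0.165) and an adjusted p of 0.0066 by limma with Benjamini-Hochberg adjustment. VIM is also abundant in fibroblasts. The 8 fibroblast and stromal markers, which do not include VIM, summed to 107.7 FPKM with doxycycline and 99.2 FPKM without. Most of that sum was THY1, at 84.9 and 74.1 FPKM, so it says little about the other markers. LUM and DCN, small proteoglycans of fibroblasts, were listed at 0 in both libraries. The collagen gene COL1A1 had 3.87 FPKM with doxycycline and 5.34 FPKM without, and COL1A2 had 15.4 and 16.7 FPKM. COL6A3, another collagen gene, had 2.77 and 1.68 FPKM. On the longer list of 11 fibroblast and stromal genes, which holds VIM, TAGLN and COL6A3, 5 were above 0 and 6 below, with a median of 0.00 here and of 0.15, 0.57 and 0.16 in the other pairs. The part of such cells in the VIM ratio was not tested. The limma test across the 3 other pairs measures doxycycline against the spread among 3 pairs that differ in hairpin and day, 2 of which also carried the EXOSC3 knockdown. It called 287 of 12446 genes (2.31%), 122 higher and 165 lower, and 2685 (21.6%) had an unadjusted p below 0.05. In the authors' deposited table the VIM transcript had a p of 5e-05 and a q of 0.0683, which was the smallest q in the table and shared by 18 transcripts, and 0 of 24575 transcripts tested there were marked significant.

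The other genes at the upper end fell into those that were high with doxycycline in all 4 pairs and those that were not. Of the 12 genes with the highest ratio at a mean of 5 FPKM or more, 9 were above 0 in all 3 other pairs. For comparison, of the 6599 genes other than short RNAs that were above 0 at shNS day 5, 1634 (24.8%) were above 0 in all 4 pairs. By limma 5 of the 12 were called higher in the other pairs (0.98% of genes were): VIM, TRIB3, G0S2, TMEM200A and DDIT3. TRIB3, a pseudokinase of the stress response, had 20.8 FPKM with doxycycline and 7.47 FPKM without at day 5 (log2 ratio 1.36, hg19 chromosome 20, 361273 to 378203). Its ratios in shNS day 7, shEXOSC3 day 5 and shEXOSC3 day 7 were 1.16, 1.53 and 1.24 (adjusted p 0.0066 over these 3). G0S2, an inhibitor of the triglyceride lipase ATGL, had 7.92 and 2.88 FPKM with doxycycline and without (1.201), and TMEM200A, a membrane protein, had 17.6 and 7.71 FPKM (1.09). Both had ratios above 0.7 in every other pair.

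MYL7, an atrial myosin light chain, had 8.20 FPKM with doxycycline and 3.04 FPKM without (1.19), and ratios of 0.72, 1.83 and 0.54 in the other pairs. LINC01806, the tachykinin precursor TAC1 and the LIM protein CSRP1 had ratios of 0.97, 0.96 and 0.96 at shNS day 5 and were above 0 in the other pairs too, but with smaller values of 0.33, 0.13 and 0.20 in shNS at day 7. PLEKHB2 went another way, with 23.2 FPKM with doxycycline and 7.97 FPKM without (1.43) but ratios of -0.10, -0.75 and 0.00 elsewhere. It is a sum over 9 transcripts, and such sums depend on how reads were divided among them.

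**Figure D2:**
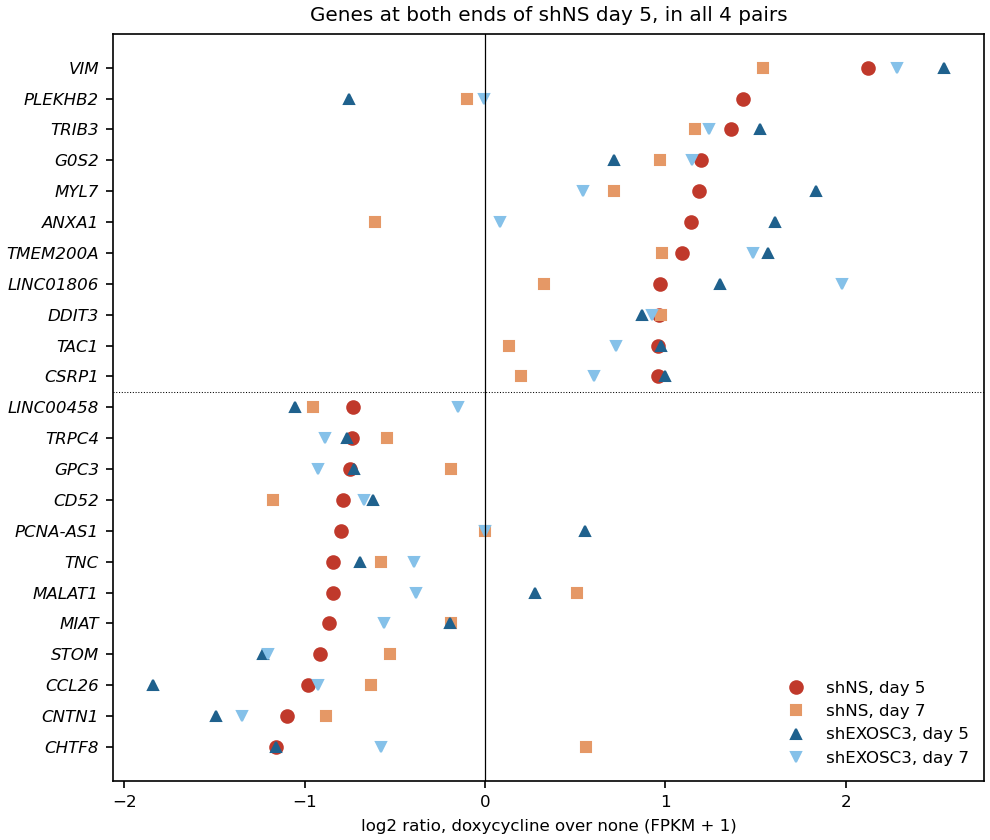
Log2 ratio of doxycycline over no doxycycline (x axis) for 11 of the 12 highest and the 12 lowest genes of shNS day 5 with a mean of at least 5 FPKM (rows), in each of the 4 pairs of libraries. Large red circles are the values that chose the genes, and VIM, TRIB3, G0S2, TMEM200A and DDIT3 are right of 0.7 in all 4 pairs, whereas PLEKHB2, ANXA1, MALAT1 and CHTF8 change side or come close to 0.

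ANXA1 and TAGLN were high with doxycycline at day 5 in both lines and nearer to or below their untreated level at day 7. ANXA1, a calcium-dependent phospholipid-binding protein, had 36.9 FPKM with doxycycline and 16.2 FPKM without at shNS day 5 (1.14), and 57.8 and 88.9 FPKM at shNS day 7 (-0.61). Without doxycycline ANXA1 was several times higher at day 7 than at day 5, although these tables were normalized separately. TAGLN, the actin-binding protein transgelin, had 252 FPKM with doxycycline and 139 FPKM without at day 5 (0.86) and a ratio of 0.17 at day 7. In shEXOSC3 the ratios at day 5 were 1.61 for ANXA1 and 0.96 for TAGLN, and at day 7 they were 0.08 and 0.20. A limma test of day 5 minus day 7 over the 4 pairs gave them differences of 1.64 (SE 0.24) and 0.72 (SE 0.16), with adjusted p of 0.28 and 0.68, and called 0 of 12484 genes (566, or 4.53%, at an unadjusted p below 0.05).

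Genes of the ATF4 amino acid response were higher with doxycycline as a group. Of 42 listed genes 41 were tested, with NUPR1 below the minimum, and 41 of 41 had a ratio above 0, against 53% of all tested genes other than short RNAs. The median ratio was 0.38, against a median of 0.01 over those genes, but only TRIB3 was past 2-fold and 7 were past 1.5-fold (0.844% of genes were). The median was 0.42 in shNS day 7, 0.48 in shEXOSC3 day 5 and 0.39 in shEXOSC3 day 7, and 34 of the 41 were above 0 in all 4 pairs, where 13.1% of all genes tested were. In the 3 other pairs 20 of 40 members tested were called higher and 0 lower, against 0.98% and 1.33% of all genes.

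Transcription factors of the list ranged from 0.14 to 0.96. DDIT3, also known as CHOP, had 24.8 FPKM with doxycycline and 12.2 FPKM without (0.96), and ratios of 0.97, 0.87 and 0.92 in the other pairs (adjusted p 0.0066 over these). ATF5 had 5.14 FPKM with doxycycline and 2.18 FPKM without (0.95), and CEBPB had 23.1 and 14.04 FPKM (0.68). The mRNA of ATF4 itself, whose protein is mainly controlled by translation, had 449.8 FPKM with doxycycline and 381 FPKM without (0.24), and ratios of 0.00, -0.14 and 0.11 elsewhere. ATF3 was the lowest of these factors at 14.04 and 12.6 FPKM (0.14). The 7 factors had a median of 0.41.

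Enzymes of amino acid and related metabolism followed. ASNS, asparagine synthetase, had 173 FPKM with doxycycline and 106 FPKM without (0.70, hg19 chromosome 7, 97481429 to 97501854), with ratios of 0.88, 0.74 and 0.76 in the other pairs (adjusted p 0.0069). PCK2, the mitochondrial phosphoenolpyruvate carboxykinase, had 48.5 and 29.2 FPKM (0.71), and CHAC1, which degrades glutathione, 27.9 and 18.6 FPKM (0.56). SHMT2, the mitochondrial serine hydroxymethyltransferase, had 367 FPKM with doxycycline and 247 FPKM without (0.57). The 6 enzymes of serine and one-carbon metabolism ranged from 0.19 (PHGDH) to 0.57 and were above 0 in all 4 pairs. ALDH18A1, of proline synthesis, was the exception among the enzymes: 69.6 and 65.6 FPKM at shNS day 5 (0.08), but ratios of -0.20, -0.29 and -0.22 in the other pairs.

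Amino acid transporters and transfer RNA synthetases had medians of 0.36 and 0.37, against 0.32 for the serine and one-carbon enzymes, and these differences between roles were not tested. SLC7A11, the light chain of the cystine/glutamate antiporter, had 41.1 FPKM with doxycycline and 25.9 FPKM without (0.65), with ratios of 0.64, 0.62 and 0.57 elsewhere. Its heavy chain SLC3A2 had 253 and 172 FPKM (0.55) at shNS day 5 but 0.07 at shNS day 7. Among the 8 cytosolic synthetases the ratio ran from 0.05 for EPRS1 (106 FPKM with doxycycline and 103 FPKM without) to 0.51 for SARS1 (171 and 119.9 FPKM), and MARS1, GARS1 and WARS1 were called higher in the other pairs. DDIT4 and SESN2, inhibitors of mTORC1 signalling, had ratios of 0.45 and 0.40 here. DDIT4 was further from 0 at day 7, with 1.34 in shNS and 1.26 in shEXOSC3.

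**Figure D3:**
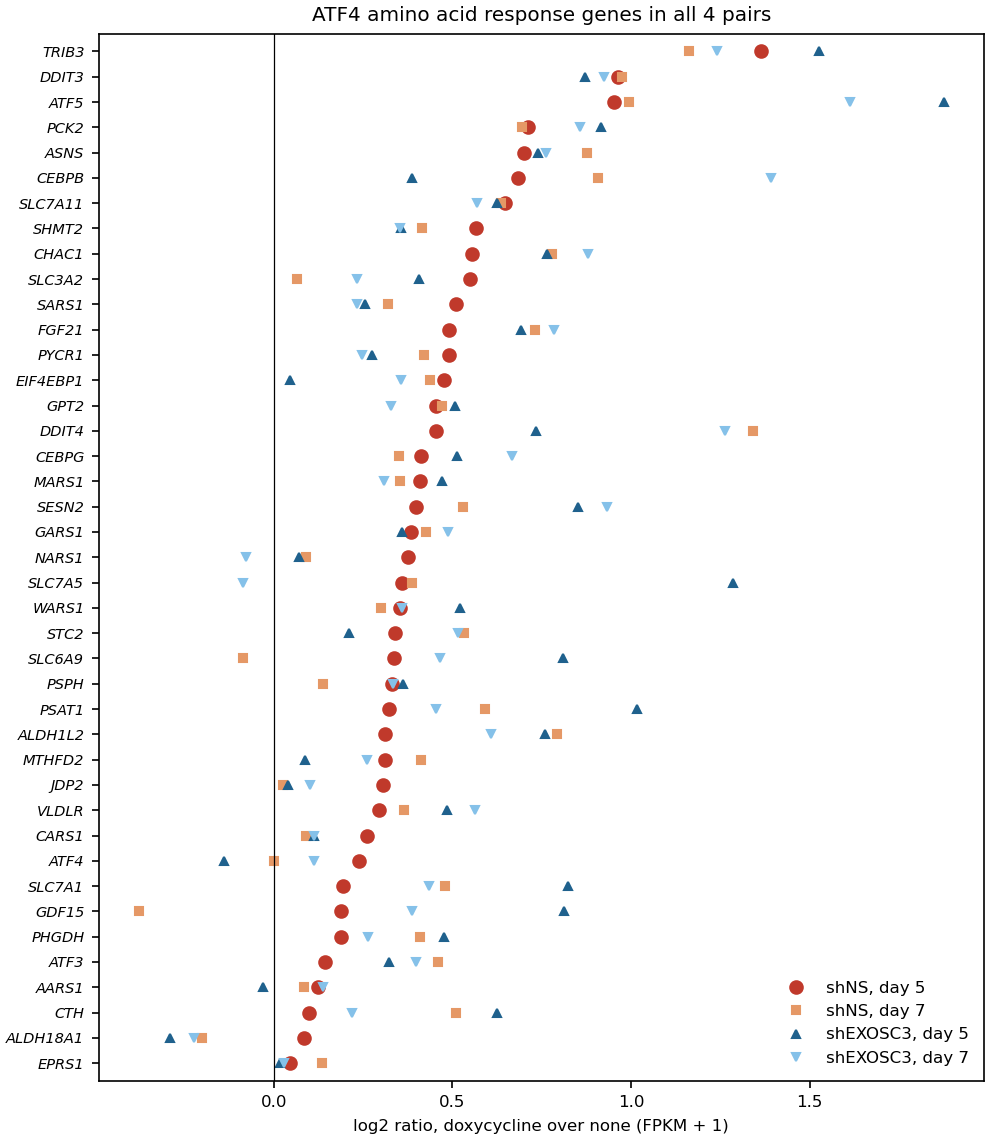
Log2 ratio of doxycycline over no doxycycline (x axis) for the 41 tested genes of the ATF4 amino acid response list (rows, ordered by shNS day 5), in each of the 4 pairs of libraries. All 41 large red circles of shNS day 5 are right of 0, from 0.05 (EPRS1) to 1.36 (TRIB3).

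The promoters of several of these genes hold the core of the element that ATF4 binds, and the sequences of the 4 matching genes with the highest ratio at shNS day 5 are shown for that reason. Promoter windows are RefSeq sequences on GRCh38.p14, from 250 bases before to 50 bases after an annotated start, while expression was measured on hg19. The letters TGATGNAA, and their reverse complement TTNCATCA, were searched on both strands, and the capitals mark the match.
ASNS, chromosome 7, minus strand, chr7:97872359-97872658: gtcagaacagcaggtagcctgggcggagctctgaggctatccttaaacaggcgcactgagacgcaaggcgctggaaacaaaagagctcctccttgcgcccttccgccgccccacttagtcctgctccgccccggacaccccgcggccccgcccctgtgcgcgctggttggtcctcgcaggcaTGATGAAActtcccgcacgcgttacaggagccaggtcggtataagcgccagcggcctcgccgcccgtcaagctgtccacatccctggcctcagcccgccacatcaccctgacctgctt
CHAC1, chromosome 15, plus strand, chr15:40953221-40953520: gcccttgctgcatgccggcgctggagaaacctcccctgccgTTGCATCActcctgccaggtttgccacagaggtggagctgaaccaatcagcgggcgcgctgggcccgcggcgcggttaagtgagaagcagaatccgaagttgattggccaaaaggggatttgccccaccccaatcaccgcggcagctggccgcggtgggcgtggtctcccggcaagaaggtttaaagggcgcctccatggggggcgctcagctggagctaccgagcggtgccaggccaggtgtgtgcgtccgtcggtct
SLC3A2, chromosome 11, plus strand, chr11:62881449-62881748: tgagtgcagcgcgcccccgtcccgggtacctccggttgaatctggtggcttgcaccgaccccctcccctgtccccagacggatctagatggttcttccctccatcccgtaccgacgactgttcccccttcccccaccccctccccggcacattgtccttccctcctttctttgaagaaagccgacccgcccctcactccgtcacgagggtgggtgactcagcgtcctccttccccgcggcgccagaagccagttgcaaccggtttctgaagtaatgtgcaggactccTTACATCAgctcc
FGF21, chromosome 19, plus strand, chr19:48755274-48755573: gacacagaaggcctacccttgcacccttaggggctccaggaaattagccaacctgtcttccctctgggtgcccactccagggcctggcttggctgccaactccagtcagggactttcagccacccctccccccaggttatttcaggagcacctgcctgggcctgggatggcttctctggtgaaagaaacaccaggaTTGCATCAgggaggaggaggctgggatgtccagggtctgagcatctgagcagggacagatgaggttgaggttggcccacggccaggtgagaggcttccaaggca
The ASNS match TGATGAAA is the core of the site known as the nutrient-sensing response element. The ASNS, CHAC1, SLC3A2 and FGF21 matches begin at -68, -209, 37 and -54, counted from the start as 0. Of the 34 tested list members with a window, 13 (38.2%) had a match in at least 1 window, against 271 of 10094 tested genes (2.68%) and 1217 of 27305 genes with a window (4.46%). The list was drawn up as ATF4 targets, so a higher share was likely beforehand, whatever the ratios were. TRIB3, DDIT3, ATF5 and PCK2, which had higher ratios than ASNS, were not among the 13, for lack of a match or of a window. A match in these letters is a description of the sequence and not a measured binding site. FGF21, a secreted metabolic hormone, was itself low, with 1.82 FPKM with doxycycline and 1.01 FPKM without (0.49).

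**Figure D4:**
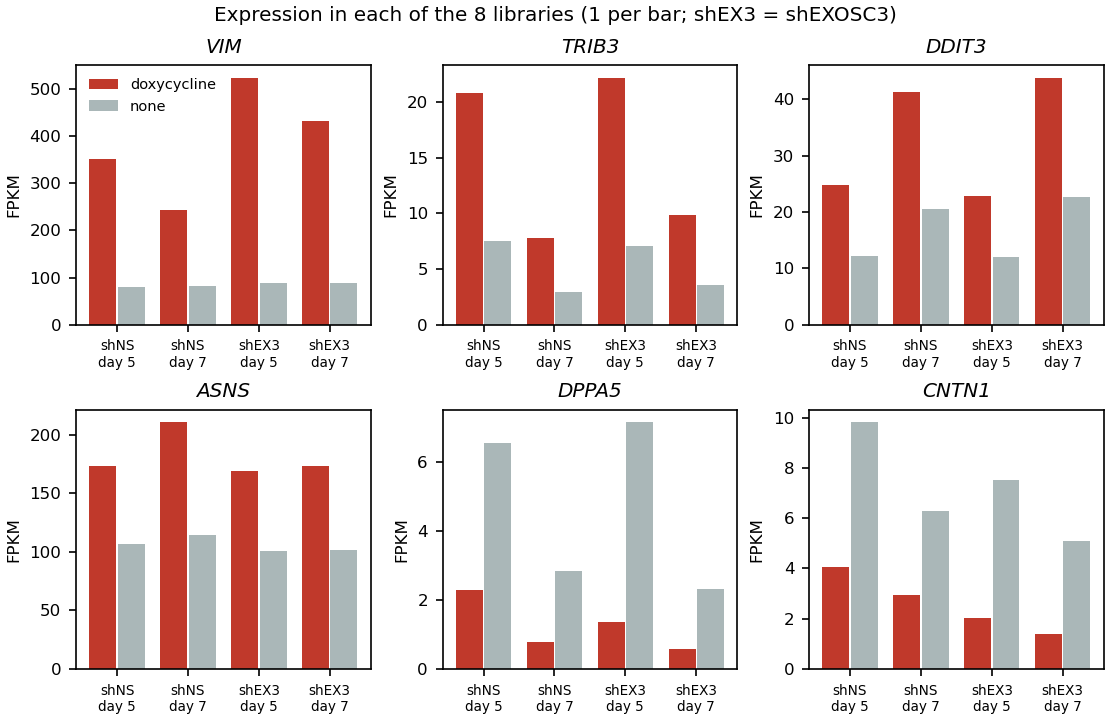
FPKM (y axis, from 0) of 6 genes in each of the 8 libraries, with doxycycline (red, left bar) and without (grey, right bar), 1 library per bar and no error bars since no group had a replicate. In each of the 4 pairs VIM, TRIB3, DDIT3 and ASNS are higher with doxycycline and DPPA5 and CNTN1 are lower.

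At the lower end, CNTN1 and CHTF8 were at least 2-fold lower among genes with a mean of 5 FPKM or more, and 10 further genes had ratios between -0.98 and -0.73. Of these 12, 9 were below 0 in the 3 other pairs, against 1654 of the 5845 genes (28.3%) that were below 0 at shNS day 5. Of the 12, CNTN1, CCL26, STOM, TNC, CD52 and TRPC4 were called lower there (1.33% of genes were). CNTN1, the neural cell adhesion molecule contactin, had 4.05 FPKM with doxycycline and 9.83 FPKM without (-1.10), and ratios of -0.88, -1.49 and -1.35 in the other pairs (adjusted p 0.0095). CCL26, a chemokine also called eotaxin-3, had 11.5 and 23.7 FPKM (-0.98), and STOM, the membrane protein stomatin, had 9.95 and 19.6 FPKM (-0.91). TNC, the matrix protein tenascin-C, had 5.32 FPKM with doxycycline and 10.3 FPKM without (-0.84). TRPC4, a cation channel, had 8.87 and 15.5 FPKM (-0.74), and GPC3, a heparan sulfate proteoglycan, had 16.5 and 28.3 FPKM (-0.75).

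Some members of that end did not keep their side or came close to 0. MALAT1, a nuclear noncoding RNA, had 74.0 FPKM with doxycycline and 134 FPKM without (-0.84) but ratios of 0.51, 0.28 and -0.38 elsewhere. PCNA-AS1, which overlaps PCNA on the opposite strand, was at 31.5 and 55.5 FPKM (-0.80) here and listed at 0 in all 4 libraries of day 7, and in shEXOSC3 at day 5 it had 45.3 and 30.5 FPKM (0.55). CHTF8 had 2.83 and 7.55 FPKM (-1.16), a ratio of 0.56 at shNS day 7, and ratios of -1.16 and -0.57 in shEXOSC3 at days 5 and 7. MIAT had 3.42 FPKM with doxycycline and 7.03 FPKM without (-0.86), and smaller ratios of -0.19, -0.19 and -0.56 in the other pairs.

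Pluripotency genes were on the low side as a group, by less than the ATF4 genes were on the high side. Of 33 tested, 25 had a ratio below 0 (47% of all tested genes other than short RNAs were) and the median was -0.22, with -0.22, -0.23 and -0.16 in shNS day 7, shEXOSC3 day 5 and shEXOSC3 day 7. Of the 33, 16 were below 0 in all 4 pairs, against 13.3% of genes, and 6 of 32 were called lower in the other pairs, where 1.33% of genes were. Fewer cells of a type and less RNA per cell cannot be told apart in bulk RNA.

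The core factors had ratios from -0.22 to -0.02 at shNS day 5, with SOX2 and LIN28A near the list median. POU5F1 had 162 FPKM with doxycycline and 165 FPKM without (-0.02), and NANOG had 18.8 and 21.0 FPKM (-0.16). SOX2 had 184 and 214 FPKM (-0.22), and LIN28A had 436 and 503 FPKM (-0.21). In shNS day 7, shEXOSC3 day 5 and shEXOSC3 day 7, POU5F1 had ratios of -0.30, -0.11 and -0.14. NANOG had -0.54, 0.05 and -0.41 there, SOX2 had -0.16, -0.55 and -0.53, and LIN28A had -0.01, -0.03 and -0.27. The lowest members were DPPA5 and DPPA3, genes of early embryonic and pluripotent cells. DPPA5 had 2.30 FPKM with doxycycline and 6.56 FPKM without (-1.197, hg19 chromosome 6, 74062785 to 74063999) and ratios of -1.11, -1.78 and -1.08 elsewhere (adjusted p 0.012). Apart from short RNAs, it was the only gene at least 2-fold lower on both shNS days (0.182% of genes were at day 7), and it was so in all 4 pairs. Its levels at day 7 were low, at 0.784 FPKM with doxycycline and 2.84 FPKM without in shNS, and 0.572 and 2.32 FPKM in shEXOSC3. DPPA2 had 13.4 and 20.7 FPKM (-0.59, adjusted p 0.017 in the other pairs), and DPPA3 had 1.07 and 2.57 FPKM (-0.79), whereas DPPA4 had 310.1 and 339 FPKM (-0.13). DNMT3B, the de novo DNA methyltransferase, had 447 FPKM with doxycycline and 548 FPKM without (-0.29), TERF1, a telomere-binding protein, had 51.8 and 72.7 FPKM (-0.48), and both were called lower in the other pairs. OTX2, a homeobox factor, was at 11.97 and 19.9 FPKM (-0.69) here but had a ratio of 0.43 at shNS day 7.

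**Figure D5:**
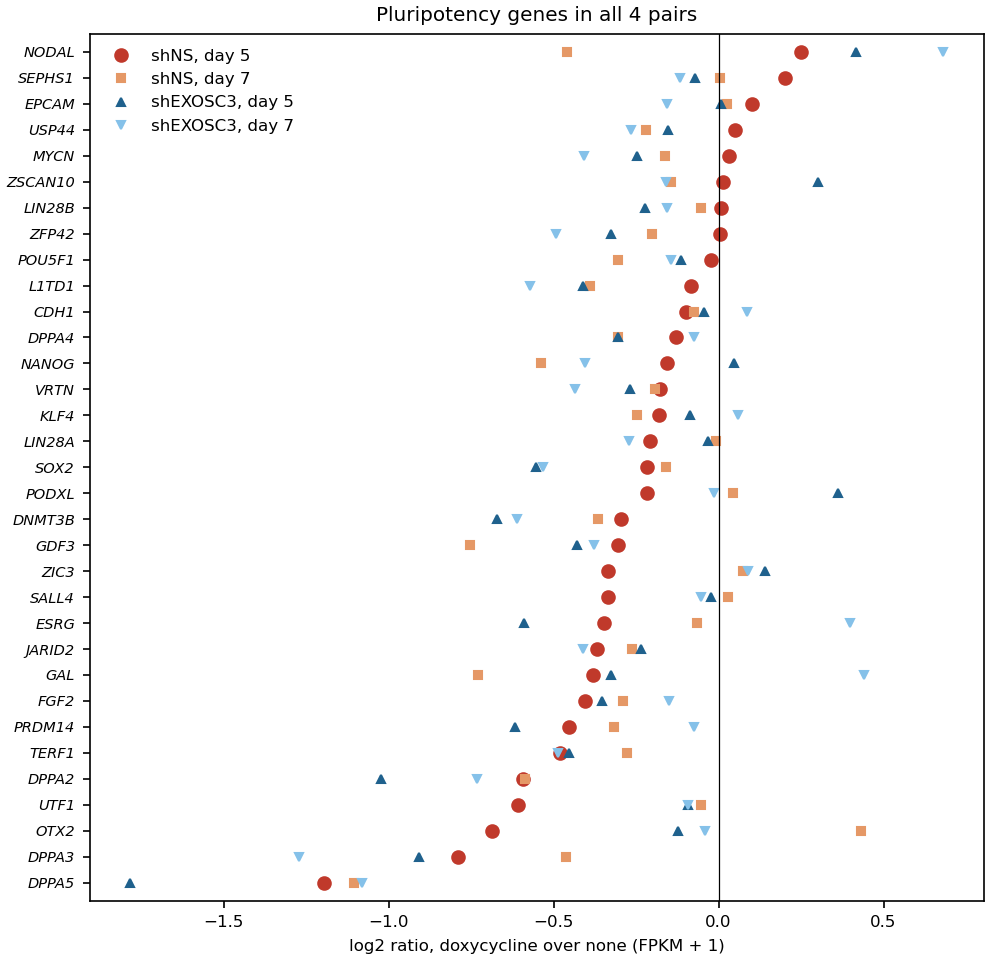
Log2 ratio of doxycycline over no doxycycline (x axis) for the 33 tested pluripotency genes (rows, ordered by shNS day 5), in each of the 4 pairs of libraries. The large red circles of shNS day 5 run from 0.25 (NODAL) to -1.197 (DPPA5), with 25 left of 0.

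Some members of other lists were further from 0 than most of their list. The metallothioneins MT1X, which had 73.8 FPKM with doxycycline and 121 FPKM without (-0.71), and MT1G, with 14.6 and 23.1 FPKM (-0.62), bind zinc and copper and were lower in every pair, with adjusted p of 0.0069 and 0.0078 in the other pairs. The list of 19 metallothionein, zinc and iron genes had a median of -0.04 here, with 12 below 0, and medians of -0.12, -0.25 and -0.35 in the other pairs. In those pairs 5 of the 19 were called lower (1.33% of genes were) and 0 higher, namely MT1E, MT1F, MT1G, MT1X and MT2A. MT1E had 46.3 FPKM with doxycycline and 44.7 FPKM without at shNS day 5, and MT2A had 18.5 and 20.9 FPKM. NQO1, a quinone reductase of the NRF2 response, had 19.5 and 11.8 FPKM (0.67), and DUSP6, a phosphatase that acts on ERK, had 138 FPKM with doxycycline and 80.8 FPKM without (0.76). Both were above 0.39 in every other pair. The 16 tested genes of the NRF2 and xenobiotic response list, which holds NQO1, had a median of 0.08 here, with 11 above 0. Their medians were -0.01, -0.04 and -0.11 in the other pairs. There 2 of the 16 were called higher and 1 lower (0.98% and 1.33% of genes were). ACTG2, an enteric smooth muscle actin, had 6.20 and 2.93 FPKM (0.87) and was called higher in the other pairs. Of 26 contractile and SRF or YAP target genes 20 were above 0, with a median of 0.15 here and 0.06, 0.30 and -0.03 elsewhere. MMP14, a membrane metalloproteinase, had 49.4 FPKM with doxycycline and 33.6 FPKM without (0.54).

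Lists of other stress and metabolic pathways had medians between -0.10 and 0.12. Endoplasmic reticulum stress genes had a median of 0.07 over 20 members, with HSPA5, the chaperone BiP, at 65.2 FPKM with doxycycline and 69.8 FPKM without (-0.10). The median was -0.04 over 18 cytosolic heat shock genes, 0.01 over 21 mitochondrial chaperones and proteases, -0.02 over 26 glycolysis genes and 0.01 over 20 interferon and RNA sensing genes. Cholesterol synthesis genes had a median of 0.12 over 25 members, of which 21 were above 0, and medians of -0.02, -0.01 and 0.07 in the other pairs. None of these lists had a member past 2-fold. The median was 0.02 over 19 hypoxia targets, 0.10 over 30 immediate early genes, 0.08 over 28 genes of DNA replication and -0.02 over 28 genes of mitosis, and these too had no member past 2-fold. The 14 RNA exosome subunits had a median of 0.11 here and medians of -0.12, -0.15 and -0.16 in the other pairs. EXOSC8 was the highest of them here, at 72.1 FPKM with doxycycline and 53.5 FPKM without (0.42). LDHA, lactate dehydrogenase, had 374 and 522 FPKM (-0.48) and HSPB1, a small heat shock protein, 16.2 and 24.2 FPKM (-0.55).

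Genes of the mitochondrial and cytosolic translation machinery lay slightly above 0 here and below 0 in the other pairs. Mitochondrial ribosomal protein genes had a median of 0.07 over 77 members, against -0.16, -0.13 and -0.11 in shNS day 7, shEXOSC3 day 5 and shEXOSC3 day 7. Nuclear genes of the respiratory chain had 0.08 over 78 members, against -0.15, -0.15 and -0.08. Cytosolic ribosomal protein genes had 0.12 over 80 members and replication-dependent histone genes 0.18 over 61. These medians are to be read beside those of all genes at like levels. In this pair genes other than short RNAs had a median of 0.05 at 30 to 100 FPKM and 0.07 above 100 FPKM. The median level was 54.5 FPKM for the mitochondrial ribosomal list. It was 110.5, 480.9 and 791 FPKM for the respiratory chain, cytosolic ribosomal and histone lists. The doxycycline library of this pair was also the deeper one, and the part of level or depth in the list medians was not tested. With the untreated shEXOSC3 library of day 5 as the reference, the cytosolic ribosomal median was -0.03 and the histone median 0.03.

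The p53 targets differed in sign between the hairpins. Their median was -0.10 over 25 members in shNS day 5 and -0.19 in shNS day 7, and 0.24 and 0.34 in shEXOSC3. CDKN1A, a cyclin-dependent kinase inhibitor, had 19.6 FPKM with doxycycline and 26.9 FPKM without (-0.44) in shNS at day 5, and a ratio of 0.34 in shEXOSC3 at day 5. BTG2, an antiproliferative gene, had 3.74 and 6.46 FPKM (-0.65) here and ratios of 0.30 and 0.88 in shEXOSC3. SESN2, which is in both the p53 and the ATF4 list, was above 0 in all 4 pairs. A limma test of shNS minus shEXOSC3 called 0 of 12484 genes (1025, or 8.21%, at an unadjusted p below 0.05).

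Over all genes the pairs shared part of their pattern. Across 12416 genes without short RNAs, the ratio of shNS day 5 had a Pearson r of 0.332 with shEXOSC3 day 5, 0.25 with shEXOSC3 day 7 and 0.208 with shNS day 7. By rank the values were lower, with a Spearman rho of 0.223, 0.189 and 0.145 in the same order. The genes are not independent replicates. Of 118 genes called higher in the 3 other pairs and tested here, 103 (87.3%) were above 0 at shNS day 5, with a median of 0.41. Of 165 called lower, 142 (86.1%) were below 0, with a median of -0.27. Among genes at least 2-fold higher at shNS day 5, TRIB3 and VIM were so at day 7 as well (2 of 17, or 11.8%, and 2 of 24, or 8.33%, of those at day 7, where 0.199% were called). Of the same 17, 10 (58.8%) were at least 2-fold higher in shEXOSC3 at day 5 (10 of 78 there, or 12.8%, where 0.625% of genes were called), and 4 (23.5%) in shEXOSC3 at day 7 (4 of 100 there, or 4%, where 0.817% were called).

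Differences of at least 1.5-fold were shared by all 4 pairs in genes of the lists and in genes outside them. Of the 105 genes (0.844%) higher by 1.5-fold at shNS day 5, 18 were so in all 4 pairs, among them VIM, TRIB3, DDIT3, ASNS, PCK2 and ATF5. Over all genes other than short RNAs, 1.31% were higher by that size in shNS day 7. The shares were 3.56% in shEXOSC3 day 5 and 4.26% in shEXOSC3 day 7. DDR2, a receptor for fibrillar collagen, had 16.3 FPKM with doxycycline and 9.24 FPKM without (0.76), and ratios of 0.99, 1.29 and 0.93 in the other pairs (adjusted p 0.0069 by limma). ADAM9, a membrane protease, had 31.1 and 18.5 FPKM (0.72), and TSC22D3, a leucine zipper protein induced by glucocorticoids, had 17.1 and 9.65 FPKM (0.76). Both were above 0.6 in every other pair. CRNDE, a long noncoding RNA, had 9.36 FPKM with doxycycline and 5.27 FPKM without (0.73), and SLC1A4, a transporter of neutral amino acids, had 1.68 and 0.621 FPKM (0.72).

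Likewise 17 of the 102 genes (0.82%) lower by 1.5-fold at shNS day 5 were so in all 4 pairs. Among them were CNTN1, CCL26, CD52, MT1X, MT1G, DPPA2 and DPPA5. Over all genes other than short RNAs, 1.33% were lower by that size in shNS day 7. The shares were 2.47% in shEXOSC3 day 5 and 2.41% in shEXOSC3 day 7. HSPA2, a chaperone of the HSP70 family, had 22.2 FPKM with doxycycline and 34.5 FPKM without (-0.61), and ratios of -0.83, -0.97 and -1.20 elsewhere (adjusted p 0.007). DHRS3, a retinaldehyde reductase, had 15.3 and 26.1 FPKM (-0.73), and NPTX1, a neuronal pentraxin, had 1.39 and 3.67 FPKM (-0.96). LINC-ROR, a long noncoding RNA of pluripotent cells, had 2.55 FPKM with doxycycline and 5.51 FPKM without (-0.88). All 4 of these genes were called lower in the other pairs.

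Averaged over the 2 shNS days, limma called 0 of 13116 genes (738, or 5.63%, at an unadjusted p below 0.05) with short RNAs in the fit. Without short RNAs it called 23 of 12484 genes (0.184%), 14 higher (0.112%) and 9 lower (0.0721%), with 952 (7.63%) at an unadjusted p below 0.05, including VIM (1.83, adjusted p 0.0066), TRIB3 (1.26, 0.0104), DDIT3 (0.97, 0.0104), ASNS (0.79, 0.0326), CNTN1 (-0.99, 0.0326) and DPPA5 (-1.15, 0.0471). Of these, ASNS and DPPA5 were not called by limma without a trend (adjusted p 0.0754 and 0.0803), nor was DPPA5 with a pseudocount of 5 FPKM (0.159). The fit without short RNAs was added after the values were seen, and with a gene read from its most abundant transcript alone it called 0 genes (579 at an unadjusted p below 0.05). In the 3 other pairs that reading also called 0 genes (1645, or 13.6%, at an unadjusted p below 0.05), so genes were called there with summed transcripts only. The loss included VIM, which has 1 transcript and the same ratios in both readings (adjusted p 0.33 by limma). The most abundant transcript was picked in each pair separately, so it can differ between pairs.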

How the data were processed

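RNA of 8 H1 libraries was measured. Per the labels, total RNA was depleted of ribosomal RNA and made into ScriptSeq v2 libraries with spike-in RNA, of which the tables hold 0 entries. The submitters' processing notes name TopHat, Cufflinks, CASAVA 1.8 and hg19. Other versions, the normalization and the counting strand were not given in the sources used here. Overlapping and antisense genes were therefore not separable. Each pair of libraries has 1 table, which per the file headers gives FPKM, p-values and q-values per transcript, as deposited by the authors. Tables were normalized separately, so levels set across pairs are approximate.

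Accessions were matched to symbols by a RefSeq table of a later assembly (48147 of 49235, 97.8%), FPKM were summed per symbol, and 22 symbols with a failed estimate were left out. Single pairs were called by size, at a log2 ratio of 1 or more either way with a pseudocount of 1 FPKM and a minimum mean of 1 FPKM. Limma 3.58.1 in R 4.3.3 was fitted with a trend on the ratios: by line on 4 ratios (2 residual degrees of freedom), and, added after the data were seen, on the 3 pairs other than shNS day 5, by day, and by line without short RNAs. Adjustment was by Benjamini-Hochberg at 0.05. Days and lines stand in for replicates there, so those p-values measure the spread between pairs. The fits were also run on simulated ratios with the same spread and effect in every pair. The real pairs differ in spread, so that run does not vouch for the calls.

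Named genes were EXOSC3 and 4 pluripotency factors, the 12 highest and 12 lowest genes with a mean of at least 5 FPKM and no short RNAs, genes past 2-fold on both shNS days, and up to 3 members at each end of each list with those past 2-fold. Some of the genes this rule names are not reported here. Other genes named were chosen after their values were seen. The comparison, its members and all lists were chosen with earlier results of these data known. Alternatives were the pseudocount, the minimum, the transcript used, the scaling, short RNAs and the reference library.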

Additional observations from a re-analysis of the deposited data

How the results depend on the processing

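The counts of genes past 2-fold, 100 higher and 83 lower, moved by over 1.5 times under 3 of 10 alternatives. With the transcript of highest mean in place of the sum they were 169 and 158. Without short RNAs they were 17 and 14. With the untreated shEXOSC3 library of day 5 as reference, 213 genes were higher. The median of the pluripotency genes, -0.22, was -0.32 over the 20 members with 1 accession, and the ATF4 median stayed between 0.33 and 0.45. Over both shNS days limma called 0 genes, 1 with the 2 shNS ratios alone, and, among fits added after seeing the data, 23 without short RNAs, 16 with a pseudocount of 5 as well, 28 with a minimum of 5 FPKM, 9 without a trend and 397 with the 2 shNS ratios alone. In the 3 other pairs it called 287 genes, 118 without a trend and 0 by the transcript of highest mean, and 53 to 267 when 1 pair was left out, with the 53 without shEXOSC3 day 5 and 154 without shEXOSC3 day 7. The causes were not tested. Of the named genes none reversed under these alternatives where it was past 2-fold. A pseudocount of 5 FPKM put 8 of them under 2-fold, including G0S2, MYL7, ANXA1, TMEM200A, CHTF8, CNTN1 and DPPA5. CHTF8 was also under it by the transcript of highest mean, and G0S2 and CNTN1 with the shEXOSC3 reference. No paired analysis was possible because each group holds 1 library and so has no second replicate number to block on, while the limma fits already use the ratio within each pair. Leaving out a replicate was not possible for the same reason. The SD of the ratio across genes was 0.28 at 1 to 2 FPKM, 0.17 at 30 to 100 FPKM and 0.19 above, and the part of depth in it was not tested.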
